A study of Homo sapiens with 6 samples.

Results

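Chromatin immunoprecipitation followed by sequencing (ChIP-seq) located 46367 SMAD4 peaks in 786-O, a cell line derived from a clear cell renal cell carcinoma. Of these, 6161 (13.3%) lay away from gene starts and coding exons and touched no region bound by the other 2 factors mapped in the same study, DPF3a and p300. The sites were selected on the position of peak calls, a measured value: a SMAD4 peak that shared not a single base with any DPF3a or p300 peak, whose summit (the base with most reads) was more than 1000 bp from every annotated transcript start and outside every coding exon. They made up 20.6% of the 29921 distal SMAD4 peaks and 63.6% of the 9693 SMAD4 peaks that touched neither other factor. The remaining untouched peaks were 3353 within 1000 bp of a start and 179 in coding exons. Among distal SMAD4 peaks, 18928 touched DPF3a and not p300, 4488 touched both, and 344 touched p300 and not DPF3a. The first 2 of these groups served for comparison. All 6161 sites enter the counts, and 8 of them lie outside the assembled chromosomes.

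SMAD4 is the partner that receptor-activated SMAD proteins share in the TGF-β and BMP pathways. Ligands of the TGF-β family bind paired receptor kinases, which phosphorylate SMAD2 and SMAD3 or SMAD1, SMAD5 and SMAD9, and the complexes with SMAD4 enter the nucleus and bind DNA. SMAD proteins recognise short sequences such as CAGAC and GC-rich variants such as GGCGC, and are often found beside other DNA-binding proteins, among them AP-1, RUNX and TEAD factors. DPF3 belongs to SWI/SNF, a complex that remodels chromatin, and DPF3a is its shorter form, whereas p300 is a histone acetyltransferase that works as a coactivator.

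The series held 2 libraries for each of the 3 factors, 6 in all. DPF3a was recovered through an HA tag in 786-O cells made to overexpress HA-DPF3a, from chromatin fixed with a protein crosslinker and formaldehyde. SMAD4 and p300 were recovered with antibodies against the proteins themselves after formaldehyde alone, and the labels do not say whether those cells overexpressed DPF3a. Each factor has 1 peak list made from both libraries, with 51530 peaks for DPF3a and 20380 for p300, so no value below has a spread between replicates and no test between replicates was possible. Intervals in brackets are 95% intervals (Wilson for a share, Newcombe for a difference of shares), treat sites as independent and cover counting error only. Sites are not replicates of a condition.

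The windows below show what the sites look like at base level. They are the site of highest fold enrichment (reads at the summit over local background) and strong sites that hold each of 5 motifs, with sites within 20000 bp of an assembly gap left out. Each window spans the summit and 50 bp on either side on the plus strand of hg38, written 5′ to 3′, and capitals mark the motif or its reverse complement. The strongest site (chr11:108312464-108312564) lies in an intron of ATM, 16 bp from a coding exon, and holds none of the 5 motifs.
ATM intron, no motif marked: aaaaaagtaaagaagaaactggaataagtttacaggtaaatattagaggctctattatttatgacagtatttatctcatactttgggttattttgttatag
The next window (chr3:194986713-194986813) holds AP-1 (TGAGTCA), the element bound by FOS and JUN dimers, and is intergenic with XXYLT1 as the nearest protein-coding gene.
intergenic near XXYLT1, AP-1: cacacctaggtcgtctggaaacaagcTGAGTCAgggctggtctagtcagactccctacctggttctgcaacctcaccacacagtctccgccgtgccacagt
The palindromic SMAD element GTCTAGAC is shown in introns of HAUS7 (chrX:153474823-153474923) and of FSTL1 (chr3:120439054-120439154), which encodes a secreted follistatin-like protein first isolated as a transcript induced by TGF-β.
HAUS7 intron, palindromic SMAD element: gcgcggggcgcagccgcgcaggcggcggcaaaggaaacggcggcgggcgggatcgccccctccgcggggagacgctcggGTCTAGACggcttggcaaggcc
FSTL1 intron, palindromic SMAD element: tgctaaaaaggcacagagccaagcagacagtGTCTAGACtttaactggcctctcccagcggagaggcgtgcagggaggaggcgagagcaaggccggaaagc
The core of the CTCF motif, recognised by the insulator protein CTCF, is shown in an intron of CACNA1C (chr12:2035040-2035140) and in an intergenic window nearest to ARAF (chrX:47541236-47541336).
CACNA1C intron, CTCF: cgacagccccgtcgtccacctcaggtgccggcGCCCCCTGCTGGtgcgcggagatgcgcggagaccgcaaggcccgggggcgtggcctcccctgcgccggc
intergenic near ARAF, CTCF: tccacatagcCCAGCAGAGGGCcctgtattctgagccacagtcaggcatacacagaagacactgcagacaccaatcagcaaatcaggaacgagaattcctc
RUNX (TGTGGTT) is shown in introns of ANKRD55 (chr5:56162094-56162194) and of the antisense RNA gene TSHZ3-AS1 (chr19:31378498-31378598).
ANKRD55 intron, RUNX: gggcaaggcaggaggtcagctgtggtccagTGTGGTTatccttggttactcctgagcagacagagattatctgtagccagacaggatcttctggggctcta
TSHZ3-AS1 intron, RUNX: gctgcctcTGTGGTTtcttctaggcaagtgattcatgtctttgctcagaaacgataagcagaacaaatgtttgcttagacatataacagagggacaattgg
TEAD (ACATTCC) is shown in an intron of PTPRU (chr1:29249380-29249480) and in an intergenic window nearest to DNAJB13 (chr11:73939212-73939312), where it directly follows a palindromic SMAD element left in lower case.
PTPRU intron, TEAD: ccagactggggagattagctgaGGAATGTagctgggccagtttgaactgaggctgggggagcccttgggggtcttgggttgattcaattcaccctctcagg
intergenic near DNAJB13, TEAD: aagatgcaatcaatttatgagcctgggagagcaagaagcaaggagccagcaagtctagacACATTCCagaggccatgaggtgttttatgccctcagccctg

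The marked motifs lay within 39 bp of the summit in all of these windows that hold one. At the FSTL1 site the palindrome was 15.5 bp from the summit, where 204 reads stacked over a local background of 14.3 reads, a fold enrichment of 13.4. At the HAUS7 site it was 32.5 bp away, with 131 reads and a fold enrichment of 14.5. The AP-1 site near XXYLT1 reached 13.7, and the CTCF sites 12.0 at CACNA1C and 10.8 near ARAF. The RUNX sites had fold enrichments of 15.2 at ANKRD55 and 13.7 at TSHZ3-AS1. The TEAD sites had 15.8 at PTPRU and 12.5 near DNAJB13. All of these are far above the middle of the sites.

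The sites were weaker than both compared groups of distal SMAD4 peaks. Their median fold enrichment was 4.82 (quartiles 4.24 and 5.72), against 5.90 (4.79 and 7.64) at distal peaks that touched DPF3a only and 8.20 (6.34 and 10.6) at those that touched both. The values ran from 1.82 to 24.1, and 129 sites reached 10 or more. The summit held a median of 22 reads (quartiles 17 and 31), from 14 to 234, over a median background of 3.46 reads. Peaks with DPF3a only had a median of 32 reads and those with both 62 reads. Under 20 reads stood at the summit of 37.5% of the sites (36.3 to 38.7), and of 16.9% of the peaks with DPF3a only. Median width was 362 bp, against 474 bp with DPF3a only and 654 bp with both. These values come from the list that chose the sites and are given as a description.

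Many sites lay near the limits of the rule. The score of the peak caller, 10 times the −log10 q, had to be at least 51, and it was under 100 at 65.7% of the sites and between 51 and 60 at 21.8%. Only 8.81% passed 200, against 33.7% of the peaks with DPF3a only. The 70 sites in the first 100 bp beyond the 1000-bp limit from a start had a median fold enrichment of 4.61, and the 86 untouched peaks in the last 100 bp before it had 4.28. The 31 sites less than 100 bp from a DPF3a or p300 peak had a median of 4.11, and the 36 distal peaks that overlapped another list by at most 100 bp had 4.52. AP-1 stood at 2 of the former and 2 of the latter. The median gap to the nearest DPF3a peak was 8796 bp (quartiles 3127 and 21658) and to the nearest p300 peak 31140 bp. A DPF3a peak lay within 1000 bp of 10.6% of the sites, and a p300 peak within 1000 bp of 2.86%.

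**Figure D1:**
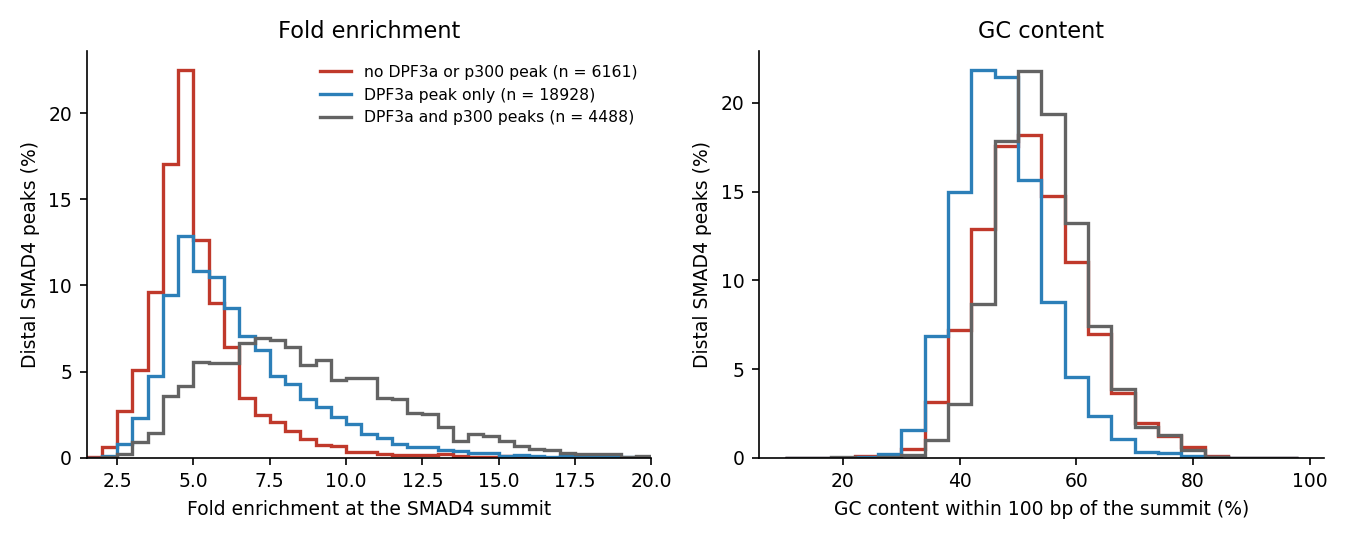
Distribution of fold enrichment at the SMAD4 summit (left, x axis cut at 20) and of GC content within 100 bp of the summit (right, in percent), as the percentage of distal SMAD4 peaks in each bin for the 3 groups. The sites without a DPF3a or p300 peak gather around their median fold enrichment of 4.82, while their GC content, with a median of 51.7%, lies above that of peaks with DPF3a only, 46.8%.

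The sites were richer in G and C than distal peaks with DPF3a only. GC content within 100 bp of the summit had a median of 51.7% (quartiles 46.3 and 58.2), above the 46.3% of flanks of the same length centred 500 bp away. At peaks with DPF3a only it was 46.8%, in flanks of 43.0%, and at peaks with both other factors 53.7%. More than 60% GC was found at 19.4% of the sites (18.4 to 20.4) and at 5.92% of the peaks with DPF3a only, a difference of 13.4 percentage points (12.4 to 14.5). Peaks with both other factors had 20.5%, and the difference from them, -1.11 points (-2.66 to 0.418), covered 0. The CpG dinucleotide stood at a median of 0.256 of the number that base composition predicts, against 0.196 with DPF3a only and 0.759 at untouched peaks within 1000 bp of a start.

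Motif content, which the rule did not use, differed from that of distal peaks with DPF3a only. Fewer sites held AP-1, RUNX or TEAD, and more held SMAD elements and CTCF. Exact matches to 20 consensus sequences were counted within 50 bp of each summit on both strands, beside the pair of flanking windows of the same length 500 bp away and 293755 windows spread over the genome. AP-1 was at 580 sites, 9.41% (8.71 to 10.2), against 1.62% of their flanks and 1.44% of genome windows. It was at 23.5% of the peaks with DPF3a only (22.9 to 24.1) and at 988 of the 4488 with both. The difference from the peaks with DPF3a only was -14.1 percentage points (-15.0 to -13.1). The sites were thus poorer in AP-1 than the compared groups and still carried it 5.80 times as often as their own flanks. The peaks with DPF3a only held AP-1 in 23.1% when weighted to the GC classes of the sites and in 22.4% when weighted to their classes of fold enrichment.

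RUNX and TEAD were also less common than at peaks with DPF3a only. The RUNX consensus, bound by the RUNX1 to RUNX3 proteins, was at 387 sites, 6.28% (5.70 to 6.91), against 1.58% of flanks and 1.88% of genome windows. Peaks with DPF3a only held it in 9.10%, a difference of -2.82 points (-3.53 to -2.07), while the difference from peaks with both, -0.648 points (-1.62 to 0.301), covered 0. Weighted to the GC classes of the sites, the peaks with DPF3a only held RUNX in 7.39%, closer to the sites, and TEAD in 4.26%. Weighted to the classes of fold enrichment, they held RUNX in 8.01%. TEAD, the motif of the factors that carry YAP and TAZ to DNA, was at 2.22% of the sites (1.88 to 2.62), against 1.26% of flanks, 4697 of the 293755 genome windows and 4.84% of the peaks with DPF3a only. AP-1 and RUNX together were at 18 sites, 0.292% (0.185 to 0.461), against 1.57% of the peaks with DPF3a only. The same consensus sequences led a search that named no motif in advance. Of 10180 sequences of 8 bases ranked by their excess at the summit over the flanks, 6 of the first 10 held AP-1 and 3 held RUNX. The first was GTGACTCA, at 201 sites (3.26%) against 0.390% of flanks, and AAACCACA was the leading RUNX sequence, at 181 sites (2.94%) against 0.519%. The only one of the 10 without either full motif was ACCACAGG, which overlaps the RUNX consensus in part, at 121 sites against 0.454% of flanks.

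**Figure D2:**
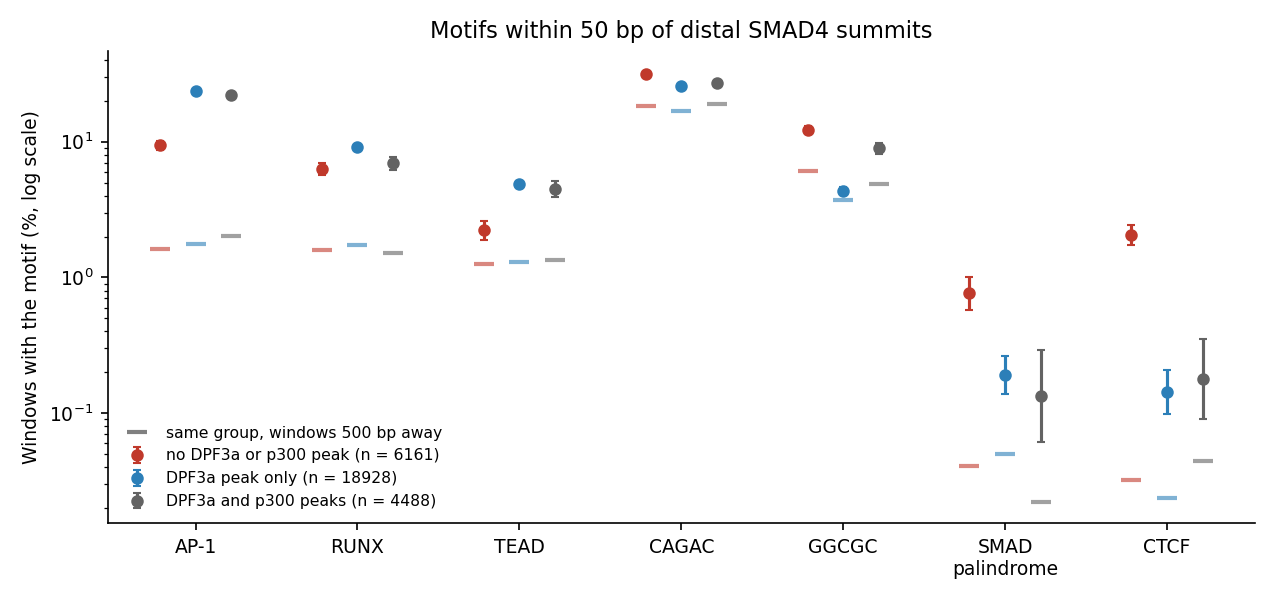
Share of windows within 50 bp of the summit that hold each motif (points, with 95% Wilson intervals, log axis) in the 3 groups of distal SMAD4 peaks, and the share in the windows 500 bp away of the same group (dashes). Sites without a DPF3a or p300 peak have the lowest points for AP-1, RUNX and TEAD and the highest for CTCF, the SMAD palindrome and both SMAD pentamers.

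SMAD elements were more common than at the other distal peaks. CAGAC was at 1930 sites, 31.3% (30.2 to 32.5), against 18.2% of flanks, 15.3% of genome windows, 25.7% of the peaks with DPF3a only and 27.1% of those with both. The differences were 5.64 points (4.34 to 6.97) and 4.19 points (2.44 to 5.92). A pair or more of CAGAC elements stood at 6.77% of the sites (6.17 to 7.42), against 2.13% of flanks and 4.24% of the peaks with DPF3a only. The GC-rich element GGCGC was at 12.3% (11.5 to 13.1), against 6.06% of flanks, 3.26% of genome windows and 4.36% of the peaks with DPF3a only. GC content moved with this element, and the latter group held it in 8.13% when weighted to the GC classes of the sites. The palindrome GTCTAGAC joins a pair of inverted SMAD boxes and does not itself spell CAGAC. It was rare at 47 sites, 0.763% (0.574 to 1.01), and stood 18.8 times as often at summits as in flanks (0.0406%, only 5 windows). Genome windows held it in 0.0569%. It was at 0.190% of the peaks with DPF3a only and 0.134% of those with both, differences of 0.573 points (0.370 to 0.828) and 0.629 points (0.383 to 0.889). Weighting the peaks with DPF3a only to the fold enrichment classes of the sites left 0.101%.

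The 47 palindrome sites were among the stronger ones. Their median fold enrichment was 5.85, from 2.66 to 14.5, against 4.82 at the other sites, and 34.0% of them passed a score of 200 (22.2 to 48.3) against 8.62% of the rest. Fold enrichment and score come from the list that chose the sites. In introns lay 30 of the 47, and 22 held a further CAGAC outside the palindrome. AP-1 was at 3 of them, TEAD at 5 and CTCF at 0, which at this number allows a share of up to 7.56%.

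CTCF showed the largest ratio of summit to flank of the 20 motifs, leaving out HNF1, which was at 0 sites and 0 flanks. Its core consensus was at 127 sites, 2.06% (1.74 to 2.45), and at 0.0344% of genome windows. In flanks it was at 4 windows, 0.0325% (0.0126 to 0.0835), so that the ratio of 63.5 rests on few flank matches and is imprecise. The consensus was at 0.143% of the peaks with DPF3a only, a difference of 1.92 points (1.59 to 2.31). It was at 0.686% of untouched peaks within 1000 bp of a start, a difference of 1.38 points (0.903 to 1.82). With up to 1 mismatch, a setting chosen after the exact matches were seen, it was at 6.22% of the sites (5.64 to 6.85), 0.876% of their flanks, 1.20% of the peaks with DPF3a only and 1.72% of those with both. The CTCF sites had few reads, with a median of 19 at the summit, and 3.94% of them passed a score of 200 (1.69 to 8.89). Among the sites without the motif 8.92% did. Among 8-base sequences, CAGAGGGC, which holds part of the CTCF core and was picked after its rank was seen, stood 15th at the sites and 1402nd at the peaks with DPF3a only.

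The other motifs ran from below their flanks, as YY1 at 0.308% against 0.455%, to several times above them in some rare ones. CRE was at 11 sites, 0.179% against 0.0406% of flanks, ETS at 19 sites, 0.308% against 0.0730%, and NFI at 3 sites. The differences from the peaks with DPF3a only were 0.110 points (0.0172 to 0.254) for CRE and 0.176 points (0.0489 to 0.354) for ETS. Weighted to the GC classes of the sites, those peaks held CRE in 0.122%, closer to the sites, and ETS in 0.133%. SP1, a GC-rich element, was at 6.93% of the sites, against 3.24% of flanks, 1.48% of genome windows and 3.05% of the peaks with DPF3a only, which held it in 6.34% once weighted to the GC classes of the sites. The forkhead (FOX) element was at 2.42% (2.06 to 2.83), against 1.23% of flanks and 1.54% of genome windows. It was at 1.90% of the peaks with DPF3a only, a difference of 0.522 points (0.112 to 0.975), and at 1.02% of those with both, a difference of 1.39 points (0.902 to 1.88). AP-1, RUNX, TEAD, CTCF or the palindrome stood at 19.8% of the sites (18.8 to 20.8), against 4.46% of flanks and 34.9% of the peaks with DPF3a only. None of the 20 motifs was found at 36.1% of the sites and 36.9% of the peaks with DPF3a only, a difference of -0.768 points (-2.14 to 0.620), which covered 0.

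The motifs gathered around the summit with different widths. Of all AP-1 matches within 500 bp of the sites, 28.8% lay within 50 bp of the summit (26.9 to 30.7), where 38.7% did at the peaks with DPF3a only. For the palindrome the share was 42.7% (33.9 to 52.1) of 110 matches, against 23.5% (17.5 to 30.8) of 153. CTCF matches formed a plateau and not a point, at 3.41 to 5.53 matches per 1000 sites in each 20 bp from 120 bp before to 120 bp after the summit. CAGAC had 43.4 and 43.6 matches per 1000 sites in the outermost bins and 88.4 at its highest, 30 bp after the summit.

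**Figure D3:**
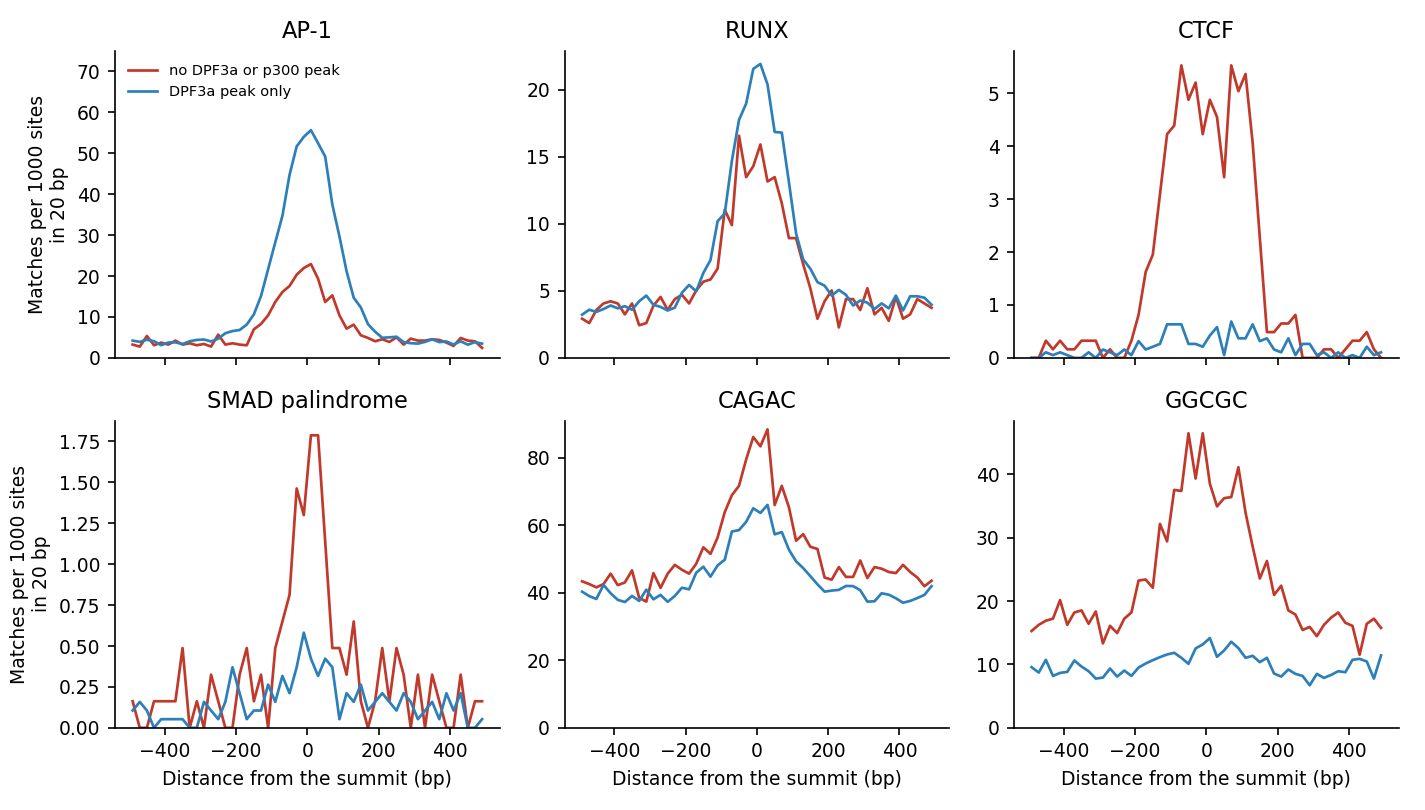
Matches per 1000 sites in bins of 20 bp from 500 bp before to 500 bp after the SMAD4 summit, for 6 motifs at sites without a DPF3a or p300 peak and at distal peaks with DPF3a only. AP-1 peaks at 22.9 matches per 1000 sites without and at over 50 with DPF3a, whereas CTCF, the palindrome, CAGAC and GGCGC are higher without.

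Among the sites themselves the motifs varied with strength and position. Divided into 5 classes of fold enrichment, the weakest class held AP-1 in 7.24% (5.92 to 8.82) and the strongest in 10.8% (9.18 to 12.6). The palindrome was at 0.407% of the weakest class (0.174 to 0.948) and at 1.78% of the strongest (1.18 to 2.69), and CAGAC at 29.0% and 38.1%. CTCF was at 1.14% of the weakest class and at most 2.84% in the class before the strongest. The peaks with DPF3a only held AP-1 in 20.2% or more of each class. The classes of fold enrichment use the list that chose the sites. Across classes of GC content, AP-1 was at 14.0% of the sites with 44.8% to 49.8% GC and at 4.42% (3.42 to 5.68) of those above 59.7%, GGCGC was at 33.8% in that last class and at 1.68% in the first, and RUNX was at 1.78% in the last and 10.5% in the first.

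**Figure D4:**
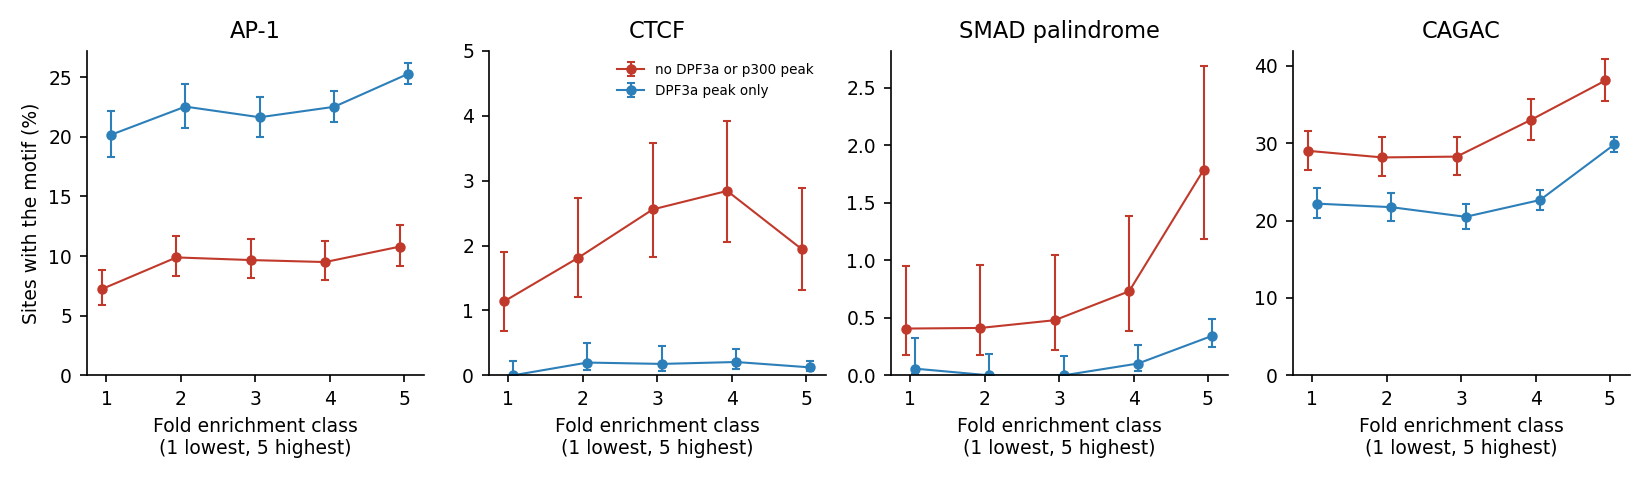
Share of sites with AP-1, CTCF, the SMAD palindrome or CAGAC within 50 bp of the summit, with 95% Wilson intervals, in 5 classes of fold enrichment set so that the sites without a DPF3a or p300 peak fill them evenly. In each class AP-1 is lower and the other 3 motifs are higher at these sites than at peaks with DPF3a only, and the palindrome and CAGAC are highest in the strongest class.

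AP-1 was not more common close to DPF3a peaks. The 652 sites within 1000 bp of a DPF3a peak held AP-1 in 7.52% (5.73 to 9.80), and the 216 sites at least 100 kb away in 14.8% (10.7 to 20.2). The sites at 1 to 10 kb and at 10 to 100 kb had 9.21% and 9.65%. All 4 shares lay below the 23.5% of peaks that touched DPF3a only. Of the 652 nearest sites, 0 held the palindrome, which allows a share of up to 0.586%, and 0.307% held CTCF (0.0842 to 1.11). At 10 to 100 kb the shares were 0.877% and 2.63%. Median fold enrichment was 4.15 in the nearest group and 5.54 in the farthest.

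The very strongest sites lay beside coding exons. The summits of 8 of the 10 sites of highest fold enrichment lay in introns within 200 bp of a coding exon, a distance chosen after these sites were seen. Those named here were in ATM, a kinase of the DNA damage response, at 24.1 and 16 bp from the exon; NF1, a negative regulator of RAS, at 19.1 and 24 bp; KDR, a VEGF receptor, at 18.1 and 3 bp; ERG, an ETS factor, at 17.8 and 115 bp; GZMA, a cytotoxic protease, at 17.3 and 100 bp; MTOR, a growth kinase, at 17.1 and 48 bp; and NRG1, a ligand of ERBB receptors, at 16.5 and 129 bp. Of the 10, those farther from coding exons were in introns of CROCC at 17.7, a gene with close copies elsewhere in the genome, and of FAM178B at 16.4. Of these 10 sites 0 held AP-1, and 3 held CAGAC.

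This feature faded down the ranking. Summits within 200 bp of a coding exon made up 8 of the strongest 10 sites, 15 of the strongest 50, 16 of the strongest 100, 31 of the strongest 500 and 2.74% of all 6161 (169 sites, 2.36 to 3.18). At the peaks with DPF3a only they were 0 of the strongest 10, 1 of the strongest 50, 3 of the strongest 100, 12 of the strongest 500 and 1.72% of all (1.54 to 1.91), a difference over all sites of 1.03 points with an interval that began at 0.599. Among the sites with a fold enrichment of at least 10, the 18 beside coding exons had a median GC content of 35.6%, and 0 of them held AP-1. The other 111 had a median GC content of 53.7%, and 9.91% of them held AP-1, 7.21% the palindrome (3.70 to 13.6) and 51.4% CAGAC (42.2 to 60.4). The sources used here name no input library. Whether the high summits beside coding exons are SMAD4 binding was not tested, and their fold enrichments are given as called. Without all 169 sites the AP-1 share was 9.53%, the palindrome share 0.768% and the median fold enrichment 4.82.

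**Figure D5:**
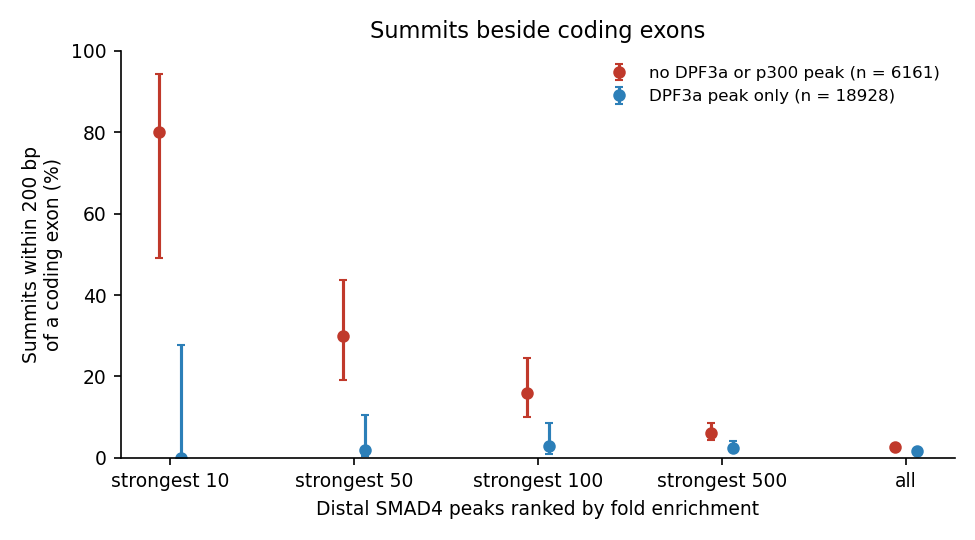
Share of distal SMAD4 summits within 200 bp of a coding exon among the 10, 50, 100 and 500 peaks of highest fold enrichment and among all, with 95% Wilson intervals, at sites without a DPF3a or p300 peak and at peaks with DPF3a only. The share is 8 of 10 among the strongest sites without and 2.74% over all of them, while it is 0 of 10 among the strongest with DPF3a.

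More than 1000 bp from a coding exon, the sites of highest fold enrichment were in introns of FAM178B (16.4), PTPRU (15.8), which encodes a receptor tyrosine phosphatase, MTHFS (15.3), ANKRD55 (15.2), HHAT (15.1), the acyltransferase that lipidates Hedgehog ligands, and NFIA (14.8), a transcription factor. A site with 15.1 was intergenic, with BCOR as the nearest protein-coding gene. This ranking, too, was made after the coding exons were seen.

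Most sites lay in introns. The summit was in an intron at 56.7% of the sites (55.5 to 58.0), between genes at 38.6% and in a non-coding exon at 4.66%. Genome positions that meet the same rule on starts and coding exons were in introns in 55.6% and between genes in 41.7%. Peaks with DPF3a only were in introns more often, 62.5%, a difference of -5.79 points (-7.21 to -4.37). The median distance to a transcript start was 9906 bp, against 17109 bp for genome positions and 11793 bp for the peaks with DPF3a only. Of the sites, 29.5% were within 5000 bp of a start and 2.22% more than 100 kb from one, where 10.2% of genome positions lie. Sites were densest on chromosomes 22, 17 and 19, at 38.8, 38.2 and 37.7 per 10 Mb, and among autosomes sparsest on chromosome 13, at 6.21. Peaks with DPF3a only were sparsest on the same autosome, at 30.6 per 10 Mb.

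The sites were mostly solitary. A further site lay within the stitching distance often used for super-enhancers at 17.3% of them (16.4 to 18.3), and 5086 had none. At the more numerous peaks with DPF3a only the share was 37.6%, a value that rises with the number of peaks. There were 65 chains of 3 or more sites and 4 of 5 or more. The longest, picked for its length, held 8 sites over 32398 bp of chromosome 1 from 115113002 to 115145400, with TSPAN2 as the nearest gene and fold enrichments from 2.71 to 5.87.

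Genes of the TGF-β pathway held few sites each. A gene was counted when a summit lay within it or up to 5000 bp upstream, which held for 2402 of 20007 protein-coding genes, 12.0%. These genes were long, with a median of 95.1 kb against 23.2 kb for those without a site, so that a count over a list depends on gene length. Of 36 widely used TGF-β and BMP target genes, 8 (22.2%) held a site, 18 sites in all, at a median length of 11.2 kb over the list and of 27.5 kb over all protein-coding genes. Of the 18 sites, 11 held CAGAC and 2 held the palindrome, both in RUNX1. Over all sites the shares were 31.3% and 0.763%. AP-1 was at 1 of the 18 sites. Their fold enrichments ran from 2.06 to 10.2 with a median of 4.70, the score was under 100 at 9 of them, and the local background ran up to 43.9 reads. With scores over 100 only, 4 of the 36 genes held a site. The share of all protein-coding genes was not computed for those sites, so this count cannot be read against 12.0%.

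RUNX1, a transcription factor gene of 1217 kb, accounted for 7 of the 18. The strongest of its sites (chromosome 21, summit 35352250) had 47 reads, a fold enrichment of 10.2, the palindrome and CAGAC, and the other six ranged from 4.60 to 6.19. A second palindrome stood at 35160125, with 16 reads and a fold enrichment of 4.80. The palindrome sites lay 302948 and 110823 bp upstream of the start of the gene's main annotated transcript. Of the 7 sites, only the one at 35011789 lay downstream of that start. The others count because the gene record extends far upstream, and at 35675171 and 35697442 the nearest protein-coding gene was SETD4. The gene also held 25 distal SMAD4 peaks with DPF3a only. SMAD7, the inhibitory SMAD that TGF-β induces, held 3 intronic sites (chromosome 18) with fold enrichments of 3.71, 3.03 and 2.82. The strongest of them, with 53 reads over a background of 13.6, was 833 bp from a DPF3a peak and held CAGAC. SKI, a corepressor of SMAD proteins, held a pair of intronic sites on chromosome 1 with 5.12 and 7.78, both with CAGAC, and neither SKI nor JUNB held a distal SMAD4 peak that touched DPF3a. JUNB, a subunit of AP-1, had a pair upstream (chromosome 19, in introns of HOOK2) with 108 and 130 reads over backgrounds of 43.9 and 37.9, so that their fold enrichments were 2.43 and 3.37. SMAD6, the inhibitory SMAD of the BMP branch, held 1 site with 2.98, TGFBI, an extracellular matrix protein, 1 with 2.96, and COL4A1, a basement membrane collagen, 1 with 4.92. High reads over a high background, as at JUNB, and 15 reads over the lowest background of the list, 2.25, as at COL4A1, were therefore both found among these sites.

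At other steps of the pathway most genes held no site, and those with a site held 1 or 2. Of 17 genes of ligands and their activators, 4 (23.5%) held a site. TGFB1 had a site of 97 reads with a fold enrichment of 3.51 and AP-1, 989 bp from a DPF3a peak, and TGFB2 had a site of 2.95 with the palindrome and CAGAC. INHBB, which encodes an activin subunit, had a pair upstream with 3.45 and 2.70, and LTBP1, which anchors latent TGF-β in the matrix, a site of 4.96 with RUNX, TEAD and both SMAD pentamers in the same window. Of 13 receptor genes, 4 (30.8%) held 1 site each, with fold enrichments of 5.47 at TGFBR2, 3.96 at ACVR1, 4.22 at ACVR1B and 4.78 at BMPR1A. Of 6 SMAD genes, only SMAD3 held a site, of 3.18 with AP-1. Of 10 inhibitor genes, SMURF2, a ubiquitin ligase of the pathway, held a site of 9.45 with CAGAC, and SMURF1 a pair of 3.82 and 3.76. The receptor list had a median length of 87.5 kb, so its share cannot be read against 12.0% without length.

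Genes of the other lists held up to 3 sites each. The shares of genes with a site stand against 12.0% of all protein-coding genes. In 3 of these lists genes are long, with medians of 73.6 kb for cell movement, 52.7 kb for renal lineage and hypoxia and 129.5 kb for SWI/SNF. The list of AP-1, RUNX and TEAD factors and their partners has 24.9 kb. Of 8 genes of cell movement that the study followed, 2 held a site. At MMP2, a secreted gelatinase, the pair of sites (chromosome 16, summits 55465364 and 55470818) had fold enrichments of 6.22 and 5.04. They lay 13834 and 8380 bp upstream of the start of its main annotated transcript, in introns of the longer gene record. The second was 405 bp from a DPF3a peak. MMP16 held 1 site, of 4.81. Of 15 genes of renal lineage and hypoxia, 3 held a site, with fold enrichments between 2.40 and 5.54. There were 3 sites at SLC2A1, a glucose transporter, a pair at EPAS1, which encodes HIF-2α, and 1 at EGLN3, an oxygen-sensing hydroxylase. The EGLN3 site lay 188888 bp from the start of that gene's main annotated transcript. Of 10 genes of SWI/SNF subunits and partners, 5 held a site, namely ARID1B with 2 and SMARCA4, ARID1A, PBRM1 and CREBBP with 1 each. The PBRM1 site, of 15 reads, was 30 bp from a coding exon, and the CREBBP site 222 bp from a DPF3a peak. Of 17 genes of AP-1, RUNX and TEAD factors and their partners, 5 (29.4%) held a site. There were 3 sites at RUNX2, 2 at RUNX3 and 1 each at TEAD1, YAP1 and WWTR1, which encodes TAZ. JUN, JUND, FOS, FOSB, FOSL1, FOSL2, BATF3 and ATF3 each held 0.

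Among the 10 protein-coding genes with the most sites were NTM with 10, MICAL2 with 9, GSE1, FRMD4A, RAD51B and KAZN with 8 each, and ME3, RAP1GAP2 and PTPRG with 7 each. The 10 ranged from 231.5 kb (ME3) to 1225 kb (KAZN). MICAL2, an oxidase that disassembles actin filaments, had the highest density of these 10, 3.33 sites per 100 kb, with 3 distal peaks that touched DPF3a only and a strongest site of 10.7 at 12201051 on chromosome 11. NTM, which encodes a neuronal adhesion protein, had 1.03 per 100 kb beside 13 peaks with DPF3a only, and its strongest site reached 9.75. RAD51B, a gene of homologous recombination, had 8 sites beside 30 peaks with DPF3a only, with the strongest at 13.2. In all, 50 protein-coding genes held 5 or more sites. Of the 2402 genes with a site, 812 (33.8%) held no distal SMAD4 peak that touched DPF3a, where 72.5% of all protein-coding genes held none. Genes with a site are longer, as given above, and the part of length in this was not tested.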

How the data were processed

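The libraries, 2 for each of SMAD4, DPF3a and p300, were assigned to a factor from their titles. In the study's methods, reads were mapped to hg38 with Bowtie2 2.3.5.1, filtered for mapping quality and duplicates, and peaks were called with MACS2 2.2.5 and kept above a score of 50. How the libraries of a factor were combined is not given in the sources used here. The deposited lists hold a score, the fold enrichment (a ratio of summit reads to local background, each plus 1) and −log10 p and q as the authors' peak caller wrote them. Summit reads and background were recovered from the deposited fold enrichment and −log10 p, with an error in −log10 p of at most 8.6e-04. Library totals are not in the lists, so precision is given by the reads at each summit.

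Transcript starts, exons and coding exons are those of GENCODE 44, from hg38. Peaks touched when they shared at least 1 bp, and the overlap code gave the same calls as bedtools 2.31.1. Motif, overlap and read recovery code was tested on simulated data. Shares and intervals were computed with statsmodels 0.14.6 in Python 3.11.15. The sites, motifs and gene lists were chosen with earlier results of these data known. Genes named are those of the lists with a site, the 10 with most sites, the host genes of the 10 strongest sites (in place of the nearest genes) and those at the sites shown as sequence, with exceptions stated where they occur. Some of the genes and 1 of the sequences that this rule picks are not reported here. The alternatives were other thresholds of score, distance and overlap, other annotations and a wider motif window.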

Additional observations from a re-analysis of the deposited data

How the results depend on the processing

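Of 86 alternative values for 8 results, 58 counted as unchanged and 28 moved. Only the difference in AP-1 had a direction that could change, and it did so in 0 of its alternatives. Unchanged meant within 1.5 times for a count, within the interval of the main value for a share or median, and, for the difference in AP-1, the same sign with an interval clear of 0. The difference in AP-1 from peaks with DPF3a only stayed between -22.1 and -13.0 percentage points. With scores over 100 there were 2086 sites, a median fold enrichment of 6.28, CTCF at 1.34% and the palindrome at 1.39%. At that score 4 of the 36 target genes held a site, with no share over all genes computed. With scores over 200 there were 543 sites, 8.45, AP-1 at 8.10%, CTCF at 0.921%, the palindrome at 2.95% and introns at 59.7%. With DPF3a and p300 peaks of scores over 100 only there were 10513 sites, 4.92, AP-1 at 11.9%, CTCF at 1.54% and the palindrome at 0.514%. When only peaks sharing 0.5 of each length counted as touching, AP-1 was 12.7%, CTCF 1.64% and introns 58.1%. More than 2500 bp from a start the median fold enrichment was 4.87, more than 5000 bp from a start 4.92 with introns at 54.6%, and without another peak within 1000 bp 4.92. With starts of protein-coding genes only introns were 54.8%. With windows of 100 bp AP-1 was 16.1%, CTCF 4.45% and the palindrome 1.04%. Up to 1 mismatch, added after seeing the data, gave CTCF 6.22%. Leaving out summits within 200 bp of a coding exon, also added then, moved none of the 8 results.

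No paired analysis was possible because the libraries of a factor share 1 list. For the same reason no replicate was left out. The exclusion of soft-masked summits was not run, since the reference used here is in capitals throughout. Summits of few reads limit what weak sites can show.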
